A study of Drosophila melanogaster with 8 samples.

Results

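The sarcomere, the contractile unit of striated muscle, is built from thick filaments of muscle myosin and thin filaments of actin, on which troponin and tropomyosin make contraction depend on calcium. Giant elastic proteins tie the thick filaments to the Z-disc, the structure that anchors the thin filaments. The genes described here are 10 Drosophila sarcomere protein genes, chosen by their symbols from the 17730 genes of each table, and all 10 were found. They are Mhc (muscle myosin heavy chain), Mlc1 and Mlc2 (myosin light chains), up (troponin T), wupA (troponin I), Tm1 and Tm2 (tropomyosins), bt (projectin), sls (Sallimus, the titin-like protein that also gives the shorter kettin) and Mf (myofilin, a thick filament protein). Tm1 also encodes cytoskeletal tropomyosins, whereas most of the others are known chiefly from muscle. Neither cell line is labelled as muscle, so the comparison asks which of these genes each line expressed and how the lines differed in them.

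Polyadenylated RNA was sequenced from ML-DmD17-c3 (D17-c3), a line that came from imaginal discs, the larval epithelia that form adult appendages, and from S2-DRSC, a stock of the embryonic, hemocyte-like S2 line. Each line gave 4 libraries from separate flasks, so the replicates are flasks of a single stock of each line. The labels name no treatment, genotype or allele for either line. Total expected counts, the estimated reads per gene summed over a library, ran from 76822525 to 110163700. The labelled cell types were set beside lists of markers. These lists were chosen with earlier results of these data known, so they are no independent check of identity. Of 10 imaginal disc markers, D17-c3 was the higher line for 9 and S2-DRSC for 1 (edgeR quasi-likelihood test, adjusted p under 0.05). Of 10 hemocyte markers, D17-c3 was the higher line for 1 and S2-DRSC for 8. Among all genes tested, D17-c3 was the higher line for 39.1% and S2-DRSC for 36.1%. D17-c3 replicate 2 stood apart from its group, with a lowest correlation of log2 CPM within D17-c3 of 0.976 against 0.994 within S2-DRSC, and results that rest on it are also given without it. Within a line the libraries measure a whole culture, so fewer cells that express a gene and less RNA per cell cannot be told apart.

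Of the summed level of the 10 genes, nearly all came from Tm1 in D17-c3 and from Mf and Tm1 in S2-DRSC. The other 8 genes were low or close to the detection floor in both lines. Tm1 was measured as a whole gene, so its muscle and cytoskeletal forms were not told apart. Levels between genes are compared in TPM, transcripts per 1000000, which are per transcript length. Tm1 made up 96.9% to 98.3% of the summed TPM of the 10 genes in the D17-c3 libraries, against 32.8% to 33.5% in the S2-DRSC libraries. Mf made up 0.334% to 0.393% in the D17-c3 libraries and 66.2% to 66.95% in the S2-DRSC libraries. The other 8 genes together came to 4.23 to 10.7 TPM per D17-c3 library, the highest being replicate 2, and to 1.99 to 2.79 TPM per S2-DRSC library.

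**Figure D1:**
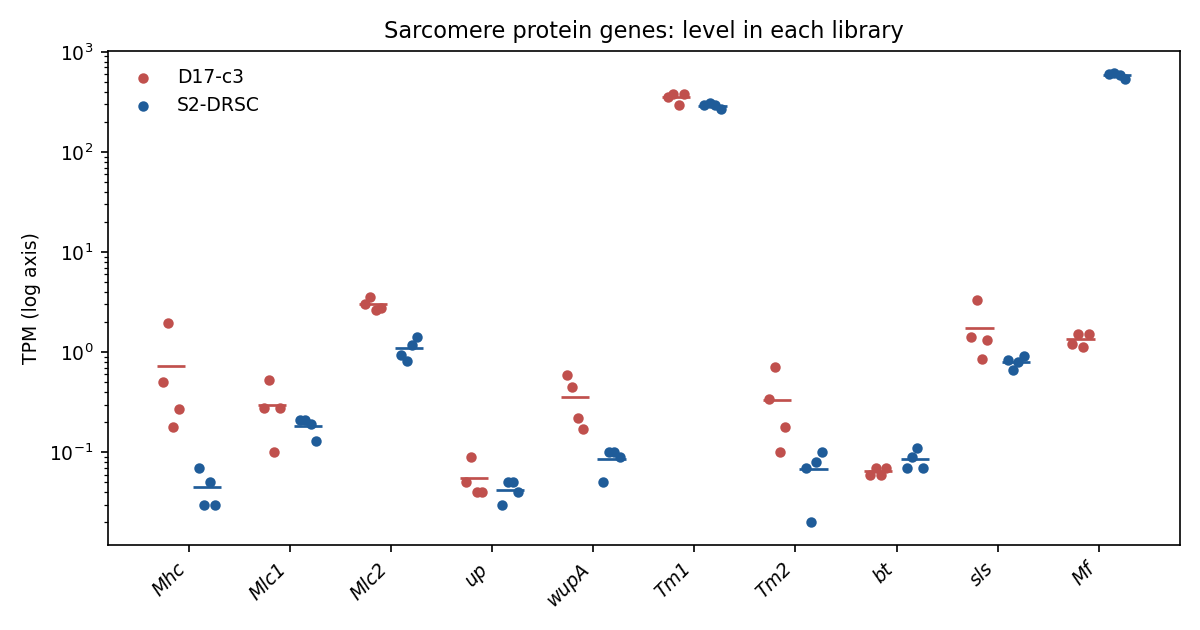
Levels of the 10 sarcomere protein genes in TPM on a log axis, with 1 point per library and a bar at the mean of each line (4 libraries each). Tm1 is at 266.08 TPM or more in all 8 libraries, Mf is at most 1.53 TPM in the D17-c3 libraries and at least 533.84 TPM in the S2-DRSC libraries, and the other genes reach at most 3.54 TPM.

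The order of the levels differed between the lines. In D17-c3, mean TPM ran from Tm1 (354.5) through Mlc2 (2.998), sls (1.732), Mf (1.353), Mhc (0.73), wupA (0.3575), Tm2 (0.3325), Mlc1 (0.2975) and bt (0.065) to up (0.055). Tm1 apart, neighbours in this order overlapped in their libraries, except Mlc1 and bt. In S2-DRSC, Mf (581.2) led Tm1 (290.4), and Mlc2 (1.09), sls (0.8025), Mlc1 (0.185), wupA and bt (0.085 each), Tm2 (0.0675), Mhc (0.045) and up (0.0425) followed. There Mf, Tm1 and Mlc2 did not overlap with each other, Mlc2 overlapped with sls, sls did not overlap with Mlc1, nor Mlc1 with wupA or bt, and the genes from wupA down overlapped with their neighbours. Among all genes Tm1 ranked at place 345 in D17-c3 and 389 in S2-DRSC by mean TPM, and Mf at place 8946 in D17-c3 and 186 in S2-DRSC.

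Between the lines, 9 of the 10 genes had enough counts to be tested, and 4 were higher in D17-c3 (Mhc, Mlc2, wupA and Tm2) and 2 in S2-DRSC (Mf and bt) at an adjusted p under 0.05 (edgeR quasi-likelihood test, Benjamini-Hochberg over all genes). The remaining 3 (Tm1, sls and Mlc1) had no call, and up was not tested. Across the 11606 genes that entered the test, 39.1% were called toward D17-c3 and 36.1% toward S2-DRSC, so these numbers of calls are not particular to sarcomere genes. The median log2 fold change of the 9 genes was 0.60, and that of all tested genes 0.04. The CPM of the lines did not overlap for 5 of the 9 (Mhc, Mlc2, wupA, bt and Mf), against 71.6% of all genes tested. With a filter of at least 1 CPM (counts per 1000000) in 4 libraries, 5 of the genes were tested and 1, Mlc2, was higher in D17-c3.

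**Figure D2:**
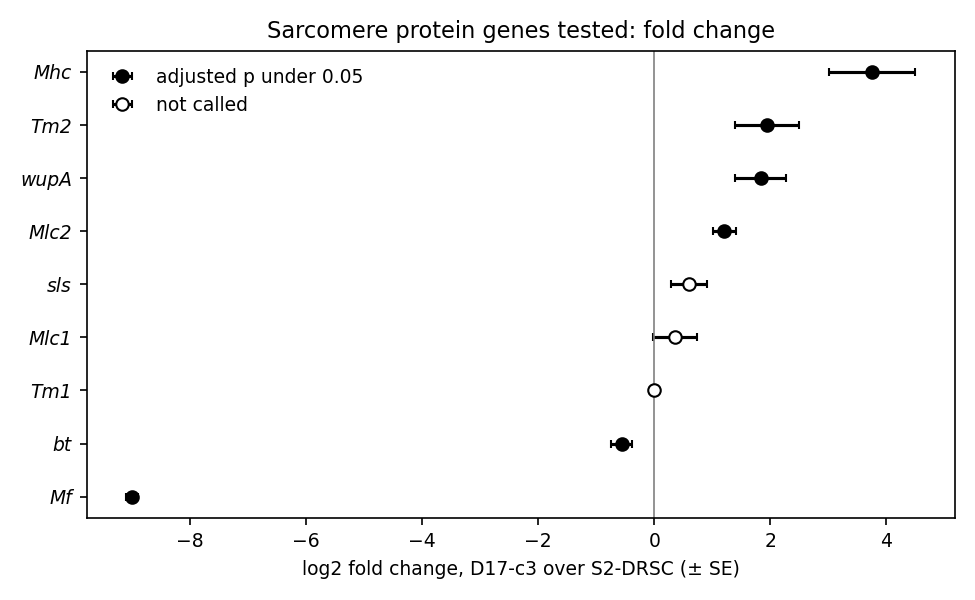
Log2 fold change of D17-c3 over S2-DRSC with its SE for the 9 sarcomere protein genes tested, filled where the adjusted p was under 0.05. Mf lies at -9.00, and Mhc at 3.75 has the widest error.

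Myosin genes were low in both lines, and Mhc and Mlc2 were higher in D17-c3. Mhc (FBgn0264695, 2L:16766566-16788766, plus strand, BDGP6) encodes the motor of the thick filament. It had 216, 785, 75 and 111 counts in D17-c3 replicates 1 to 4, against 32, 14, 25 and 15 counts in S2-DRSC replicates 1 to 4. Every D17-c3 library lay above every S2-DRSC library, and D17-c3 replicate 2 had by far the highest value. On the scale of normalised CPM, Mhc was at 3.20 ± 3.49 in D17-c3 and 0.236 ± 0.0937 in S2-DRSC (SD, n = 4 libraries each), a log2 fold change of 3.75 ± 0.75 (SE, edgeR adjusted p = 0.00122). Without D17-c3 replicate 2 it was 2.64 (adjusted p = 7.96e-05).

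Mlc2 (FBgn0002773, 3R:30171438-30174551, minus strand), the regulatory light chain of muscle myosin, was steadier. It had 3.03, 3.54, 2.67 and 2.75 TPM in the D17-c3 libraries and 0.93, 0.82, 1.19 and 1.42 TPM in the S2-DRSC libraries. The lines did not overlap, and the log2 fold change was 1.21 ± 0.19 (edgeR adjusted p = 0.000311). In a test against a 2-fold change, added after the data were seen, Mlc2 did not pass (adjusted p = 0.137).

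Mlc1 (FBgn0002772, 3R:27657078-27660177, minus strand), the alkali light chain, had 14, 24, 5 and 13 counts in the D17-c3 libraries and 12, 14, 11 and 7 counts in the S2-DRSC libraries. The lines overlapped and no difference was detected at this depth (log2 0.36 ± 0.39, edgeR adjusted p = 0.42). Without D17-c3 replicate 2, the highest library, the log2 fold change was -0.01.

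The nonmuscle counterparts of these genes were far more abundant. zip, the nonmuscle myosin II heavy chain gene, was at 334 ± 29.8 TPM in D17-c3 and 92.9 ± 3.19 TPM in S2-DRSC (SD, n = 4 libraries each), which was 173.1 to 1622 times the TPM of Mhc in the D17-c3 libraries and 1344 to 3172 times in the S2-DRSC libraries. zip was higher in D17-c3 (log2 1.61 ± 0.07, edgeR adjusted p = 5.51e-08). The light chain genes sqh (log2 0.19 ± 0.07) and Mlc-c (log2 -0.28 ± 0.06) differed by much less. The call for sqh was lost when D17-c3 replicate 1, 3 or 4, or a single library of S2-DRSC, was left out and with no filter (adjusted p = 0.119), and that for Mlc-c with library totals only and in both tests on unscaled TPM.

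**Figure D3:**
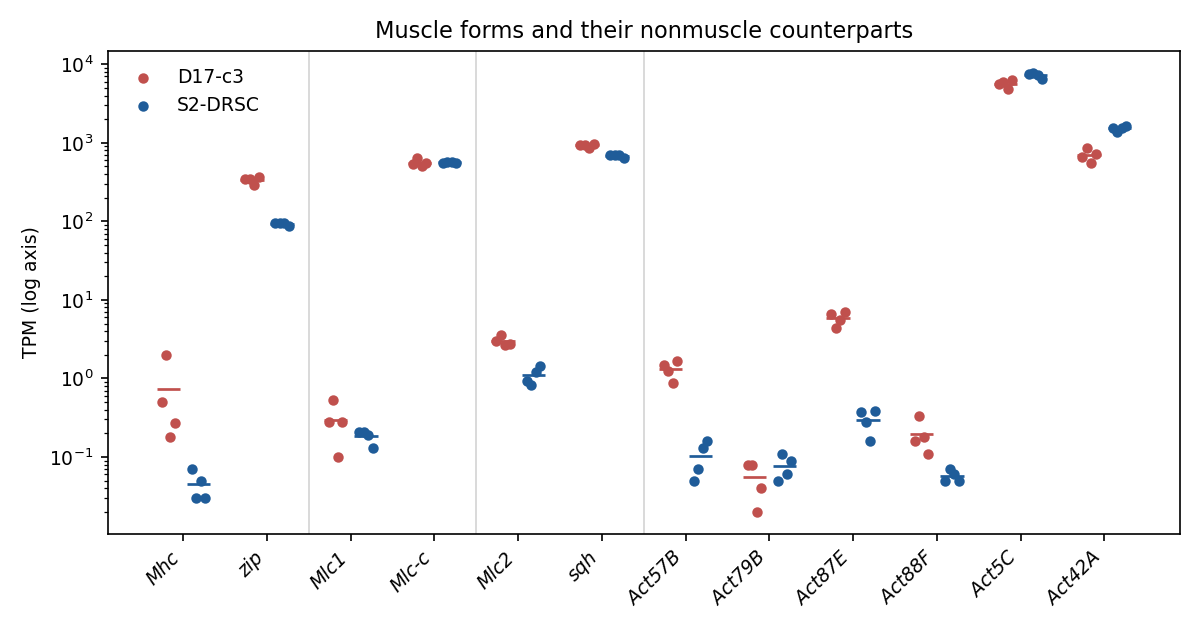
TPM on a log axis for muscle myosin genes beside their nonmuscle counterparts (Mhc and zip, Mlc1 and Mlc-c, Mlc2 and sqh), and for the muscle actin genes Act57B, Act79B, Act87E and Act88F beside the cytoplasmic actin genes Act5C and Act42A. Points are libraries and bars are means of 4 libraries per line, and each nonmuscle gene lies at 88.16 TPM or more in every library while each muscle gene reaches at most 7.08 TPM.

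The tropomyosin genes are neighbours and were expressed at very different levels. Tm1 (FBgn0003721, 3R:15278220-15308779, plus strand) ends 1413 bases before Tm2 (FBgn0004117, 3R:15310193-15315197, plus strand). Tm1 was at 475.1, 466.0, 449.6 and 495.8 CPM in the D17-c3 libraries and 463.6, 508.7, 467.6 and 447.2 CPM in the S2-DRSC libraries. The lines overlapped, and the log2 fold change was -0.0004 ± 0.07 (edgeR adjusted p = 0.995). The genes l(3)neo43 (6.04 ± 1.14 CPM in D17-c3 and 4.71 ± 0.295 CPM in S2-DRSC) and CG45218 (9.15 ± 3.13 CPM in D17-c3 and 2.90 ± 0.0816 CPM in S2-DRSC) overlap Tm1 on the other strand and were a small part of its level. The call for Tm1 depended on the scaling. On unscaled TPM, where Tm1 stood at 354.5 ± 41.4 in D17-c3 and 290.4 ± 17.95 in S2-DRSC, limma gave a log2 fold change of 0.28 (adjusted p = 0.0263), beside a shift of 0.18 in the median of all genes, and after TMM scaling of TPM the log2 fold change of Tm1 was 0.03 (adjusted p = 0.707).

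Tm2, known chiefly as a muscle tropomyosin, had 26, 46, 9 and 14 counts in the D17-c3 libraries and 5, 3, 7 and 9 counts in the S2-DRSC libraries. D17-c3 replicate 3 overlapped with S2-DRSC replicate 4 in CPM, and replicate 2 was the highest library. The log2 fold change was 1.94 ± 0.55 (edgeR adjusted p = 0.00921), and 1.44 without D17-c3 replicate 2 (adjusted p = 0.015). The call was lost in the test against a 2-fold change (adjusted p = 0.061) and in limma on TMM-scaled TPM (adjusted p = 0.0538). In each library Tm1 exceeded Tm2 at least 539-fold in TPM.

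The troponin genes were near the floor. wupA (FBgn0283471, X:18105568-18116922, minus strand), which encodes the inhibitory subunit, had 39, 27, 14 and 10 counts in the D17-c3 libraries and 4, 8, 7 and 6 counts in the S2-DRSC libraries. The lines did not overlap (log2 1.83 ± 0.44, edgeR adjusted p = 0.00385). up (FBgn0004169, X:13593474-13602578, minus strand), the tropomyosin-binding subunit, had 4, 8, 3 and 3 counts in the D17-c3 libraries and 3, 6, 5 and 3 counts in the S2-DRSC libraries. With a floor of 3 counts per library, a difference in up was not detectable.

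Mf (FBgn0038294, 3R:15170625-15181510, minus strand) was the single member with a very large difference, toward S2-DRSC. It had 85, 86, 62 and 88 counts in the D17-c3 libraries, against 40849, 50049, 42734 and 33811 counts in the S2-DRSC libraries. In TPM these were 1.22, 1.52, 1.14 and 1.53 in D17-c3 and 594.8, 612.3, 583.7 and 533.8 in S2-DRSC. The log2 fold change was -9.00 ± 0.11 (edgeR adjusted p = 2.56e-11), 512-fold higher in S2-DRSC, and 16 of the 11606 genes tested (0.138%), Mf included, had a fold change at least as large in that direction. The TPM of Mf was 0.772 to 6.33 times that of Mhc in the D17-c3 libraries, against 8497 to 20410 times in the S2-DRSC libraries. Gyc88E, a guanylyl cyclase gene, spans Mf on the opposite strand and was at 0.907 ± 0.168 CPM in D17-c3 and 0.105 ± 0.0314 CPM in S2-DRSC. In D17-c3 that is the level of Mf itself (0.888 ± 0.0795 CPM), and since the sources used here do not give the strand setting of the counting, the few reads of the locus in D17-c3 cannot be told apart.

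The giant filament genes differed little in level. bt (FBgn0005666, 4:724400-776474, plus strand), for projectin, had 113, 117, 109 and 117 counts in the D17-c3 libraries and 136, 204, 223 and 128 counts in the S2-DRSC libraries. In CPM the lines did not overlap, at 1.27 ± 0.0797 in D17-c3 and 1.87 ± 0.392 in S2-DRSC (log2 -0.56 ± 0.18, edgeR adjusted p = 0.0194). This call was lost without S2-DRSC replicate 3 (log2 -0.44, adjusted p = 0.0625), with library totals only and in every test on TPM.

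sls (FBgn0086906, 3L:2039681-2115611, minus strand) was at 1.42, 3.34, 0.86 and 1.31 TPM in the D17-c3 libraries and 0.83, 0.67, 0.80 and 0.91 TPM in the S2-DRSC libraries. The lines overlapped in CPM and no call was made (log2 0.60 ± 0.31, edgeR adjusted p = 0.105). D17-c3 replicate 2 was the highest library, and without it the log2 fold change was 0.14 (adjusted p = 0.323), while without D17-c3 replicate 3 it was 0.78 (adjusted p = 0.0384). Alone among the members, sls had expected counts that were not whole numbers. The RNA gene asRNA:CR42860 overlaps it on the opposite strand, at 0.133 ± 0.160 CPM in D17-c3 and 0.295 ± 0.205 CPM in S2-DRSC.

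D17-c3 replicate 2 held higher levels of several members, a pattern seen in the data and described without a test. It was the highest D17-c3 library for 5 of the 9 members tested, against 37.4% of all genes tested. Its CPM over the mean of the other D17-c3 libraries was 5.68 for Mhc, 2.73 for Tm2, 2.50 for sls, 2.28 for up (8 counts) and 2.18 for Mlc1 (24 counts). That is 5 of the 10 members, or 4 of the 9 tested, at 2-fold or more, where 7.14% of all tested genes were. This share covers tested genes of every level. None was computed for genes with counts as low as those of up, Mlc1 and Tm2 (46 counts), so the contrast can be overstated. For wupA the ratio was 1.25, for Mlc2 1.11, for Mf 1.04, for Tm1 0.984 and for bt 0.975. Of the 44 tested genes in the other contractile and regulator lists, replicate 2 was the highest D17-c3 library for 22, against 37.4% of all genes tested. At 2-fold or more were 5 of the 44 (11.4%, near the 7.14% of all tested genes). The 5 were nau at 9.41 times (22.4 counts), tin, a mesoderm homeobox gene, at 3.91 times, sna at 3.496 times, Mlp60A, a muscle LIM protein gene, at 3.23 times and Ca-alpha1D, a voltage-gated calcium channel gene, at 3.05 times. The lowest ratios among the 44 were 0.382 for jp, 0.517 for Him and 0.586 for TpnC25D. The same library was the highest D17-c3 library for 6 of 10 hemocyte markers and the lowest for 2, and their summed TPM was 267.2 in it and 200.4 to 265.3 in the other D17-c3 libraries, against 9145 to 11120 in the S2-DRSC libraries. None of the 10 was at 0 in any library. For imaginal disc markers it was the highest for 4 of 10 and the lowest for 4, with a summed TPM of 460.6 against 429.7 to 546.4 in the other D17-c3 libraries. Single markers differed more than these sums. The CPM ratio of replicate 2 ran from 0.135 (Awh) to 2.46 (vg) for disc markers and from 0.406 (Hml) to 4.10 (NimC1) for hemocyte markers. The part of either list in the higher sarcomere gene levels was not tested.

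**Figure D4:**
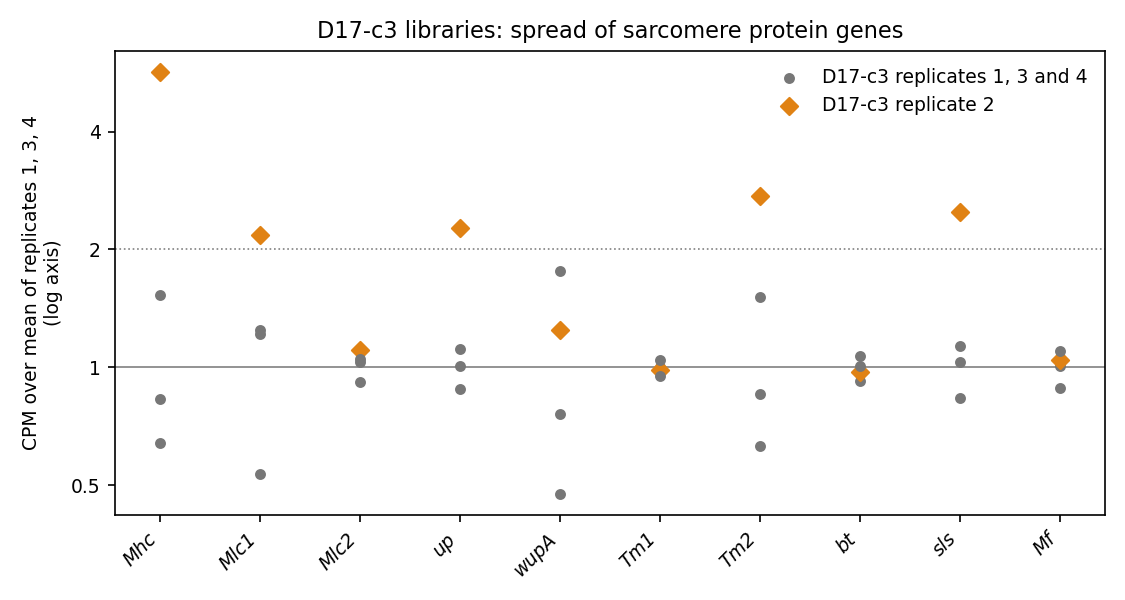
CPM of the 10 sarcomere protein genes in each D17-c3 library, divided by the mean of replicates 1, 3 and 4, on a log axis with a dotted line at 2. Replicate 2 (diamonds) lies above 2 for Mhc, Tm2, sls, up and Mlc1 and close to 1 for Mlc2, Tm1, bt and Mf.

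Transcript length gave a second readout for genes with several transcripts. The tables give each gene's mean transcript length in a library, weighted by the estimated abundance of its transcripts. Tm1, with 17 transcripts of 752 to 3054 bases, averaged 2072.4, 2068.69, 2063.44 and 2068.84 bases in the D17-c3 libraries and 2118.3, 2112.71, 2124.37 and 2113.57 bases in the S2-DRSC libraries. The lines did not overlap, with a difference of -48.9 bases (two-sided exact permutation p = 0.0286, unadjusted, the smallest that 4 against 4 libraries allow). Such separation was common: mean lengths did not overlap for 44.9% of 4497 genes with 2 or more transcripts and at least 1 TPM in every library.

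sls had lengths of 17140, 17451, 18148 and 17339 bases in the D17-c3 libraries and 20255, 20666, 20158 and 20027 bases in the S2-DRSC libraries. The D17-c3 mean was lower by 13.6% of the S2-DRSC mean, with no overlap (two-sided exact permutation p = 0.0286, unadjusted), on a level under the 1 TPM asked of the background genes in some libraries. Of its 13 annotated transcripts, 2 are short (15263 and 17268 bases) and 11 run from 32960 to 56489 bases. With these lengths, the long transcripts can have made up at most 10.6% to 16.3% of sls transcripts in the D17-c3 libraries, against at most 26.9% to 30.5% in the S2-DRSC libraries. The lowest shares that the means allow were 0% to 2.2% in D17-c3 and 7.0% to 8.7% in S2-DRSC, and the ranges these bounds allow overlap between the lines. For Mf the mean lengths were 1107 ± 80.7 bases in D17-c3 and 1108 ± 15.5 bases in S2-DRSC, and Mhc, up, wupA, Tm2 and bt overlapped between the lines on few reads. Mlc1 and Mlc2 had the same length in all libraries.

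**Figure D5:**
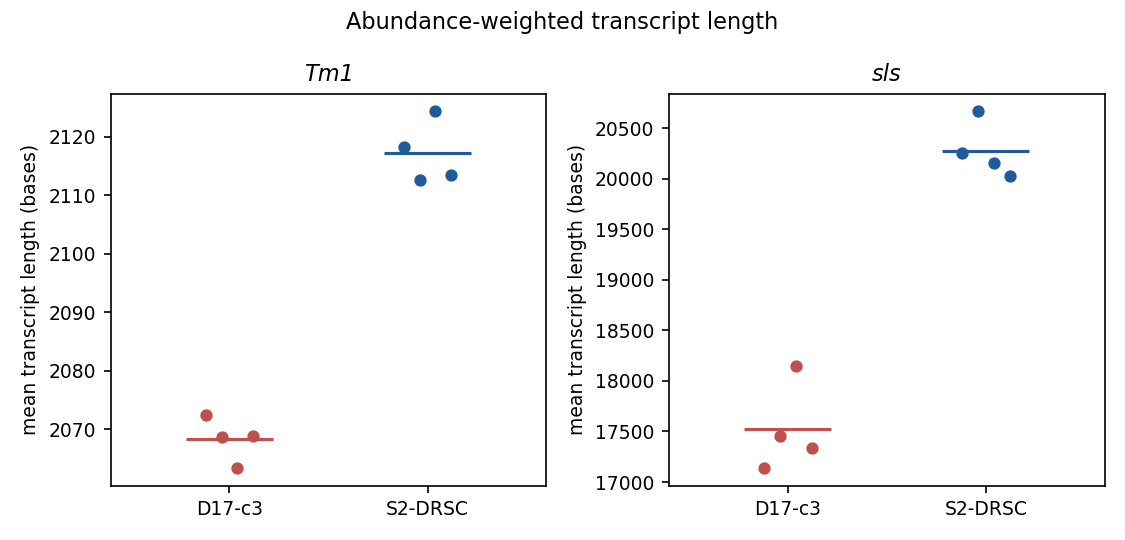
Mean transcript length in bases of Tm1 and sls, weighted by estimated transcript abundance, with 1 point per library and a bar at the mean of each line. The D17-c3 points lie below the S2-DRSC points for both genes, and the axes do not start at 0.

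Other genes of the contractile apparatus and its regulators, 50 genes in 7 lists, differed in both directions. With 44 of them tested, 18 were called toward D17-c3 and 19 toward S2-DRSC, near the 39.1% and 36.1% of all genes tested, with a median log2 fold change of 0.13 beside 0.04 for all genes. These counts are therefore no result about the lists. Of 14 Z-disc and thin filament length genes, 1 was called toward D17-c3 (3 without D17-c3 replicate 2) and 9 toward S2-DRSC, beside 39.1% and 36.1% of all genes tested, with a median log2 fold change of -0.68. In the test against a 2-fold change, 5 of the 14 were called toward S2-DRSC, beside 1619 of all 11606 genes tested. Zasp66, a PDZ domain Z-disc gene, was at 0.31, 0.29, 0.24 and 0.32 TPM in the D17-c3 libraries and 73.36, 74.54, 72.43 and 63.59 TPM in the S2-DRSC libraries. Its log2 fold change was -8.23 ± 0.10 (edgeR adjusted p = 2.76e-11), 301-fold higher in S2-DRSC. The related Zasp67 was low (0.0275 ± 0.00957 TPM in D17-c3 and 0.298 ± 0.0597 TPM in S2-DRSC, log2 -3.40 ± 0.28). tmod, which caps the pointed ends of thin filaments, was the gene of the list higher in D17-c3, at 88.9 ± 10.4 TPM against 15.0 ± 0.767 TPM in S2-DRSC (log2 1.99 ± 0.07, edgeR adjusted p = 1.49e-08).

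Among thick filament and M-line genes, Unc-89, the obscurin gene, was higher in D17-c3 (1.53 ± 0.254 TPM against 0.338 ± 0.0359 TPM in S2-DRSC, log2 2.03 ± 0.12, edgeR adjusted p = 3.8e-07). Prm, for paramyosin, was called higher in D17-c3 (log2 0.65 ± 0.26, edgeR adjusted p = 0.0437), a call lost when D17-c3 replicate 1 or 2, or a single library of S2-DRSC, was left out, with no filter (adjusted p = 0.0679) and on TMM-scaled TPM (adjusted p = 0.0686). Strn-Mlck, a giant kinase gene related to titin, was higher in S2-DRSC (7.08 ± 1.89 TPM in D17-c3 and 54.5 ± 6.72 TPM in S2-DRSC, log2 -2.52 ± 0.23). unc-45, a myosin chaperone gene, was also higher in S2-DRSC (log2 -0.60 ± 0.18), a call lost with library totals only and on unscaled TPM, and its D17-c3 replicate 2 library, at 59.74 TPM, stood above all others. fln, for flightin of flight muscle, reached at most 5 counts per library and was not tested.

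Of the 5 troponin C genes, TpnC4 (log2 1.59 ± 0.31) and TpnC41C (log2 1.67 ± 0.38) were higher in D17-c3, at 0.82 ± 0.300 and 0.923 ± 0.411 TPM there and 0.225 ± 0.0493 and 0.208 ± 0.0763 TPM in S2-DRSC. TpnC25D had no call (log2 0.03 ± 0.32), and TpnC47D and TpnC73F were not tested. Of the 6 actin genes, the muscle actins Act57B (log2 3.42 ± 0.36), Act87E (3.91 ± 0.30) and Act88F (1.47 ± 0.37) were higher in D17-c3, and the cytoplasmic actins Act5C (-0.52 ± 0.10) and Act42A (-1.40 ± 0.10) in S2-DRSC. Act87E, the highest muscle actin, was at 5.88 ± 1.22 TPM in D17-c3 and 0.298 ± 0.102 TPM in S2-DRSC, while Act5C was at 5665 ± 635.5 TPM in D17-c3 and 7248 ± 530.7 TPM in S2-DRSC. Actin genes are similar in sequence, so reads can be split between them, which gives expected counts that are not whole numbers. The expected counts of Act57B, Act79B and Act88F were whole in every library. Those of Act87E were whole in S2-DRSC but not in D17-c3 (621.03, 368.01, 493.87 and 619.03). Whether misplaced reads of the abundant actins add to the low members was not tested, so their values remain uncertain. Act79B was not tested.

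Of 5 calcium handling genes, 3 were called toward D17-c3 and 2 toward S2-DRSC, beside 39.1% and 36.1% of all genes tested. Ca-alpha1D (log2 3.72 ± 0.51, or 3.12 without D17-c3 replicate 2), jp, the junctophilin gene (2.12 ± 0.32), and the IP3 receptor gene Itp-r83A (0.52 ± 0.08) were higher in D17-c3. The sarcoplasmic reticulum pump gene SERCA (-0.47 ± 0.13) and RyR, for the ryanodine receptor (-1.59 ± 0.21), were higher in S2-DRSC, the call for SERCA being lost with library totals only and on unscaled TPM, and that for RyR on log2(TPM + 1) (adjusted p = 0.111). RyR, the calcium release channel of muscle, was at 0.0325 ± 0.005 TPM in D17-c3 and 0.075 ± 0.01 TPM in S2-DRSC.

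Of 12 muscle transcription factor genes, 10 entered the test, with 5 called toward D17-c3 and 3 toward S2-DRSC, beside 39.1% and 36.1% of all genes tested. Mef2, the activator of many sarcomere genes, had no call, at 17.8 ± 3.49 TPM in D17-c3 and 17.8 ± 0.94 TPM in S2-DRSC (log2 -0.19 ± 0.08, edgeR adjusted p = 0.0624). That rests on D17-c3 replicate 2, without which Mef2 was called higher in S2-DRSC (log2 -0.25, adjusted p = 0.00996), as it also was with no filter (adjusted p = 0.0418) and on TMM-scaled TPM (adjusted p = 0.0345). Him, which encodes an inhibitor of Mef2 activity, was at 71.9 ± 21.7 TPM in D17-c3 and 0.145 ± 0.0759 TPM in S2-DRSC (log2 8.70 ± 0.38, edgeR adjusted p = 5.21e-08). salm, a zinc finger gene that selects flight muscle fate, was at 0.885 ± 0.121 TPM in D17-c3 and 0.035 ± 0.01 TPM in S2-DRSC (log2 4.39 ± 0.21). Toward S2-DRSC, nau, the fly MyoD gene, had 0.04, 0.27, 0.00 and 0.04 TPM in the D17-c3 libraries and 7.94, 7.69, 7.75 and 8.52 TPM in the S2-DRSC libraries. Its log2 fold change was -6.81 ± 0.62 (edgeR adjusted p = 6.01e-06), or -8.36 without D17-c3 replicate 2. sna, a mesoderm repressor gene, was low in both lines (0.03 ± 0.0283 TPM in D17-c3 and 0.378 ± 0.0974 TPM in S2-DRSC, log2 -3.89 ± 0.45, or -4.55 without D17-c3 replicate 2).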

How the data were processed

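RNA of 8 libraries, 4 per line, was grouped by the line in the labels. RSEM, featureCounts, Subread 2.0.0, STAR 2.7.3a, DESeq2 1.30.1 and Trim Galore 0.6.4 were listed without roles, per the submitters' processing notes, as were the builds BDGP6 and dm6. The authors deposited expected counts, TPM, FPKM and transcript lengths per gene, per the file headers. The deposited FPKM values were not used. The deposited expected counts were rounded and tested in edgeR 4.0.16 (TMM factors, filterByExpr, quasi-likelihood test by line over 11606 genes, threshold 0.05). CPM are rounded counts over TMM-scaled library sizes, and an SE is the size of the log2 fold change divided by the root of F. The deposited TPM values, which keep no depth, served to compare genes and in limma 3.58.1 tests. Positions came from Ensembl release 115 (BDGP6). Its transcript lengths equalled the deposited lengths within 0.5 bases for 99.81% of 10266 genes with 1 transcript.

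The floor, 3 counts, came to 0.0272 to 0.0391 CPM by library total and covers counting error only. The p-values measure the spread between flasks of a single stock per line. Replicates differed beyond sampling noise (chi-square over its degrees of freedom 8.18 or more). On data simulated over 11606 genes the test recovered 60% of genes changed 2-fold and 92% of those changed 4-fold, and called 0.105% of unchanged genes. These rates hold for the share of genes changed in the simulation, whereas 75.2% of the genes tested were called in the data. There Prm was called at an unadjusted p of 0.0325 (edgeR quasi-likelihood test), a cut that can pass more unchanged genes than 0.105%. The simulated rates therefore cannot be carried over to the data. The members and gene lists were chosen with earlier results of these data known. Named were all 10 members, all genes of lists of up to 6, and of longer lists the 2 called genes per direction with the largest fold change. Mef2 was named as a fixed muscle marker, and Mlp60A and tin outside this rule. Of 5 neuron markers, 0 were called toward D17-c3 and 3 toward S2-DRSC, beside 39.1% and 36.1% of all genes tested. Their summed TPM was 11.35 to 15.11 in D17-c3 and 31.8 to 36.8 in S2-DRSC. Alternatives were DESeq2 1.42.0, other scalings and filters, a replicate block, tests on TPM, a test against a 2-fold change (added after seeing the data) and leaving out each library.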

Additional observations from a re-analysis of the deposited data

Results flagged for a closer look

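In 8 cases 1 library lay far from the other 3 of its line, by the gap to its nearest neighbour over the whole range (0.833 to 0.982). With many groups examined, about 1 in 20 would be picked out by chance. The number of groups examined is not given, so the 8 cases cannot be set against that rate. They are also not all such cases. D17-c3 replicate 2 lay as far out for tin (0.746 CPM against 0.176 to 0.198) and NimC1 (4.34 CPM against 0.770 to 1.35). D17-c3 replicate 2 was high for unc-45 (117.8 CPM against 65.6 to 69.7 in the other D17-c3 libraries) and for Ca-alpha1D (2.93 CPM against 0.847 to 1.13). D17-c3 replicate 4 was high for Act5C (7841 CPM against 7015 to 7131 in the others). S2-DRSC replicate 4 was high for Unc-89 (3.77 CPM against 2.98 to 2.99 in the others). S2-DRSC replicate 2 was high for zip (502.2 CPM against 473.7 to 478.2) and sqh (556.1 CPM against 532.4 to 535.2). The mean transcript length of wupA was low in D17-c3 replicate 4 (1129.0 bases against 1159.01 to 1160.0 in the others), on 10 counts. The mean transcript length of bt was high in S2-DRSC replicate 1 (26983 bases against 26593 to 26658 in the others). In none of these cases was the cause tested.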

How the results depend on the processing

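Mf, Mhc and wupA kept direction and call in every alternative that tested them (18, 17 and 17), with log2 fold changes from -9.07 to -7.95 for Mf, 0.56 to 4.06 for Mhc and 0.27 to 2.06 for wupA, the smallest sizes on log2(TPM + 1). The 4 members higher in D17-c3 became 1 with a filter of 1 CPM in 4 libraries, which left 5 tested, 2 in the test against a 2-fold change and 3 on TMM-scaled TPM, by the loss of Tm2. They numbered 4 to 5 when 1 library was left out. The 2 higher in S2-DRSC became 1 with library totals only, in all 3 tests on TPM and in the test against a 2-fold change, each time by the loss of bt, and numbered 1 to 2 when 1 library was left out. Tm1 had no call as reported (log2 -0.0004). It was called higher in D17-c3 at log2 0.28 on log2(TPM + 1) and log2(TPM + 0.1) (limma adjusted p = 0.0263 and 0.0264). There the median of all genes was 0.18 and 0.25. That median was 0.21 with library totals only and 0.04 as reported. The split of all calls moved with scaling, from 51.95% higher in D17-c3 to 60.0% with library totals and 62.9% on unscaled TPM. sls was called higher in D17-c3 with library totals only, on log2(TPM + 0.1) and without D17-c3 replicate 3. The 19 other contractile and regulator genes higher in S2-DRSC became 10 in the test against a 2-fold change, and were 19 to 20 when 1 library was left out, against 16 to 19 for the 18 higher in D17-c3.

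Counts of single lists moved by over 1.5 times most often for thick filament genes in D17-c3 (2 to 1 in 11 of 18 alternatives), nonmuscle myosin II in D17-c3 (2 to 1 in 10), Z-disc genes in D17-c3 (1 to as many as 4 in 5) and calcium handling genes in S2-DRSC (2 to as few as 0 in 5). Correlations of same-numbered libraries between lines were 0.011, 0.115, -0.039 and 0.052, and those of other pairs ran from -0.12 to 0.164. No shared effect of the numbers was seen, but 4 libraries per line cannot exclude pairing. In edgeR a replicate block left 4 and 2 members called and ended the calls for sqh (adjusted p = 0.0807) and Prm (adjusted p = 0.0599). Depth limits up, and Mlc1, wupA and Tm2 rest on at most 46 counts per library.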
